A study of Sus scrofa with 12 samples.

Results

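Mitochondrial ribosomal proteins are made from nuclear genes in the cytosol, imported into mitochondria and assembled with ribosomal RNA from the mitochondrial genome. The resulting mitochondrial ribosome has a small subunit, which decodes the mRNA, and a large subunit, which forms peptide bonds and passes the new protein into the inner membrane. It translates only the mRNAs of the mitochondrial genome, which encode core subunits of the oxidative phosphorylation (OXPHOS) complexes. The remaining OXPHOS subunits are nuclear genes translated by cytosolic ribosomes. In the testis, spermatogenic cells carry mitochondria that end up in the sperm midpiece, and Leydig cells use theirs for the first step of steroid synthesis. The epididymis, where sperm mature after leaving the testis, is lined by a secretory epithelium within smooth muscle.

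The genes were taken as every row whose name begins with MRPL or MRPS followed by a digit, which gave 67 of the 30640 gene rows. Another 4 genes of the same naming, MRPL2, MRPL30, MRPS2 and MRPS6, were present only under an identifier and were kept apart. By their known place in the ribosome, 43 of the 67 belong to the large subunit and 23 to the small subunit, and MRPS36 is now assigned to the 2-oxoglutarate dehydrogenase complex. In RefSeq on build Sscrofa11.1, 66 of the 67 lay on 17 chromosomes, with at most 8 on one of them (chromosome 12), and MRPL41 was unplaced.

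The samples were testis and epididymis of adult, untreated boars of 1 strain, the Banna mini-pig inbred line (BMI), a small Chinese pig. Each tissue had 5 short-read RNA-seq libraries, and the headers of both tissues name the same 5 animals, so replicate numbers mark boars. Age is 12 months per the labels but 11 to 17 months per the headers, where the boar of replicate 4 has the 17. The question the design poses here is how the tissues differ in expression of these genes.

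Libraries held 17980578 to 30211957 counted reads, and levels are given as counts per 1000000 reads of the library (CPM). Both tissues carried their own markers: all 12 haploid germ cell, 8 meiotic, 5 Leydig and 7 Sertoli genes tested were higher in testis, and all 9 epididymal epithelium, 6 smooth muscle and 6 macrophage genes tested were higher in epididymis. Testis replicate 4 stood apart from the other testis libraries. The signal recognition particle RNA, which has no poly(A) tail, was at 7888 CPM or more in testis replicates 1, 2, 3 and 5 but at 7.75 CPM in replicate 4. It was at 8.27 CPM or less in all epididymis libraries. Library content and tissue therefore cannot be told apart in the other 4 testis libraries. Summed haploid germ cell markers were 21590 CPM in this library and 15533 to 17363 CPM in the other 4. Summed meiotic markers were 713 CPM against 1172 to 1318 CPM. Gene by gene, however, this library was above the other 4 for 4 of the 8 meiotic markers and below them for 2. The median log2 ratio to their mean was 0.38, so the lower sum does not stand for the list. In tissue samples such as these, fewer cells of a type and less RNA per cell cannot be told apart.

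The summed level of the 67 genes was nearly the same in both tissues. It was 2235, 2256, 2248, 2578 and 2376 CPM in testis replicates 1 to 5 and 2485, 2635, 2144, 2158 and 2032 CPM in epididymis replicates 1 to 5. The tissues overlapped, with means of 2339 ± 145 CPM (SD, n = 5) in testis and 2291 ± 256 CPM (SD, n = 5) in epididymis, a ratio of 1.02. A single gene, MRPL37, supplied 17.3 to 18.4% of these reads in testis replicates 1, 2, 3 and 5, 7.93% in testis replicate 4 and 2.84 to 3.65% in epididymis. Without it the means were 1972 ± 231 and 2218 ± 249 CPM (SD, n = 5 each), a ratio of 0.889.

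The 13 mRNAs of the mitochondrial genome did not share that balance. Their sum was 7104, 8323, 5238, 16159 and 7342 CPM in testis and 24721, 64534, 17840, 18464 and 21913 CPM in epididymis. Every epididymis library lay above every testis library, and the epididymis mean of 29495 ± 19783 CPM (SD, n = 5) was 3.34 times the testis mean of 8833 ± 4245 CPM (SD, n = 5). Per boar, epididymis over testis was 3.48, 7.75, 3.41, 1.14 and 2.98 for the mitochondrial mRNAs and 1.11, 1.17, 0.954, 0.837 and 0.855 for the ribosomal proteins. Replicate 4, whose testis library stood apart, gave the smallest difference in mitochondrial mRNAs.

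Among libraries of 1 tissue, the same library was highest for both sums, but by different amounts. Epididymis replicate 2 had 3.62 times the mitochondrial mRNA of the lowest epididymis library, whereas the ribosomal protein sum spanned 1.30-fold. The epididymis libraries also differed in marker levels. The 6 smooth muscle markers summed to 12001, 16037, 6704, 5545 and 11675 CPM in replicates 1 to 5. Replicates 2, 1 and 5 were highest in that order, as for mitochondrial mRNA. Other marker lists gave other orders. The 9 epithelium markers summed to 26867, 20329, 26419, 31395 and 19329 CPM, and the 6 macrophage markers to 191, 191, 222, 325 and 107 CPM. The 12 haploid germ cell markers summed to 133, 120, 653, 238 and 139 CPM. The part of these marker differences in the mitochondrial mRNA or ribosomal protein sum was not tested. Testis replicate 4 had 2.31 times the mean mitochondrial mRNA of the other testis libraries and 1.13 times their ribosomal protein sum. There were 2.33 to 3.69 mitochondrial mRNA reads per ribosomal protein read in testis replicates 1, 2, 3 and 5, 6.27 in testis replicate 4, and 8.32 to 24.5 in epididymis. Gene by gene, epididymis replicate 2 was the highest epididymis library for 28 of the 64 tested ribosomal protein genes (43.8%), against 22.4% of all genes tested, and for all 13 mitochondrial mRNAs. This was not particular to these genes: it was also highest for 41 of 62 cytosolic ribosomal proteins (66.1%) and 25 of 61 nuclear OXPHOS genes (41%). With 5 libraries per tissue no correlation was computed.

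**Figure D1:**
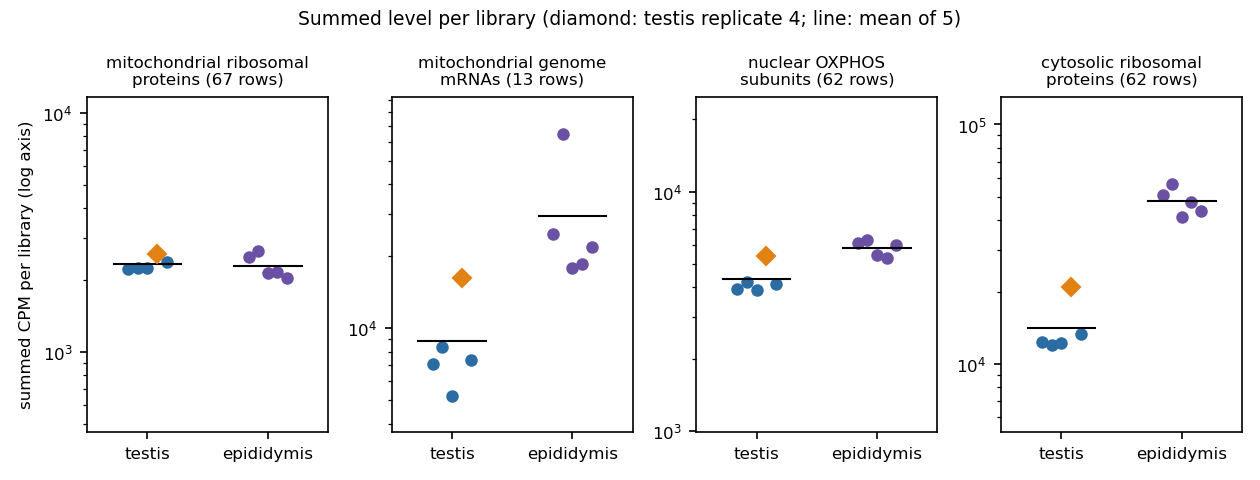
Summed CPM per library on log axes, each spanning the same fold, for 4 groups of genes in testis and epididymis; circles are libraries, the diamond is testis replicate 4 and the line is the mean of 5. The mitochondrial ribosomal protein sums overlap between tissues (2235 to 2578 against 2032 to 2635 CPM), whereas the mitochondrial genome mRNAs are higher in every epididymis library.

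Of the mitochondrial mRNAs, 11 of 13 were higher in epididymis and 0 higher in testis, with a median log2 fold change (testis over epididymis) of -1.78. Calls are at an adjusted p of 0.05 in edgeR's quasi-likelihood test, fitted on all 17225 genes that passed a filter on low counts, of which 37.8% were called higher in epididymis. COX1, the catalytic subunit of complex IV, was at 2332, 2346, 1335, 4625 and 2109 CPM in testis and 8896, 22391, 4654, 6372 and 7048 CPM in epididymis, a log2 fold change of -1.97 ± 0.47 (SE, edgeR adjusted p = 0.00254). COX3, of the same complex, differed by -0.95 ± 0.36 (edgeR adjusted p = 0.0311) and CYTB, of complex III, by -1.70 ± 0.41 (edgeR adjusted p = 0.00244). The call of COX3 was lost without epididymis replicate 1 or 2 or testis replicate 1, 3 or 5 (edgeR adjusted p of up to 0.089) and with DESeq2 size factors (edgeR adjusted p = 0.0556). ND6 (-1.39, edgeR adjusted p = 0.0296) lost its call with the boar as a block (edgeR adjusted p = 0.0782). Testis replicate 4 alone put COX1 at -1.0, COX3 at -0.67 and CYTB at -0.69, none past the threshold. ND1 was at -0.76 (edgeR adjusted p = 0.0897) and ATP8 at -1.06 (edgeR adjusted p = 0.129), both short of the threshold. ATP8 overlaps ATP6 on the mitochondrial genome, and its level was only 0.780 to 7.39 CPM. The count of 11 fell to 7 without testis replicate 1 or without epididymis replicate 2, rose to 13 without testis replicate 4, and was 0 with testis replicate 4 alone, where the median was -0.67.

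Single ribosomal protein genes went both ways. Of the 67, 64 passed the filter; 13 of these (20.3%) were higher in testis, against 36.6% of all genes tested, and 25 (39.1%) were higher in epididymis, against 37.8%. In all 38 were called, against 74.4% of all genes tested, and 26 were not. The median log2 fold change was -0.27 against -0.07 over all genes tested, with quartiles at -0.84 and 0.45 and a range from -3.17 to 2.34. The libraries of the tissues did not overlap for 12 genes with testis above (32.1% of all genes tested) and 16 with epididymis above (29.3%). With testis replicate 4 standing alone for its tissue, 10 of the 64 were higher in testis (23.4% of all genes tested) and 0 higher in epididymis (11.4%; 34.7% in either direction), and the median of the 64 was 0.16. In that fit the lone testis library is assumed to vary like the epididymis libraries. Without testis replicate 4 the counts were 17 (37.9% of all genes tested) and 31 (38.2%), or 48 in all (76.1%).

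**Figure D2:**
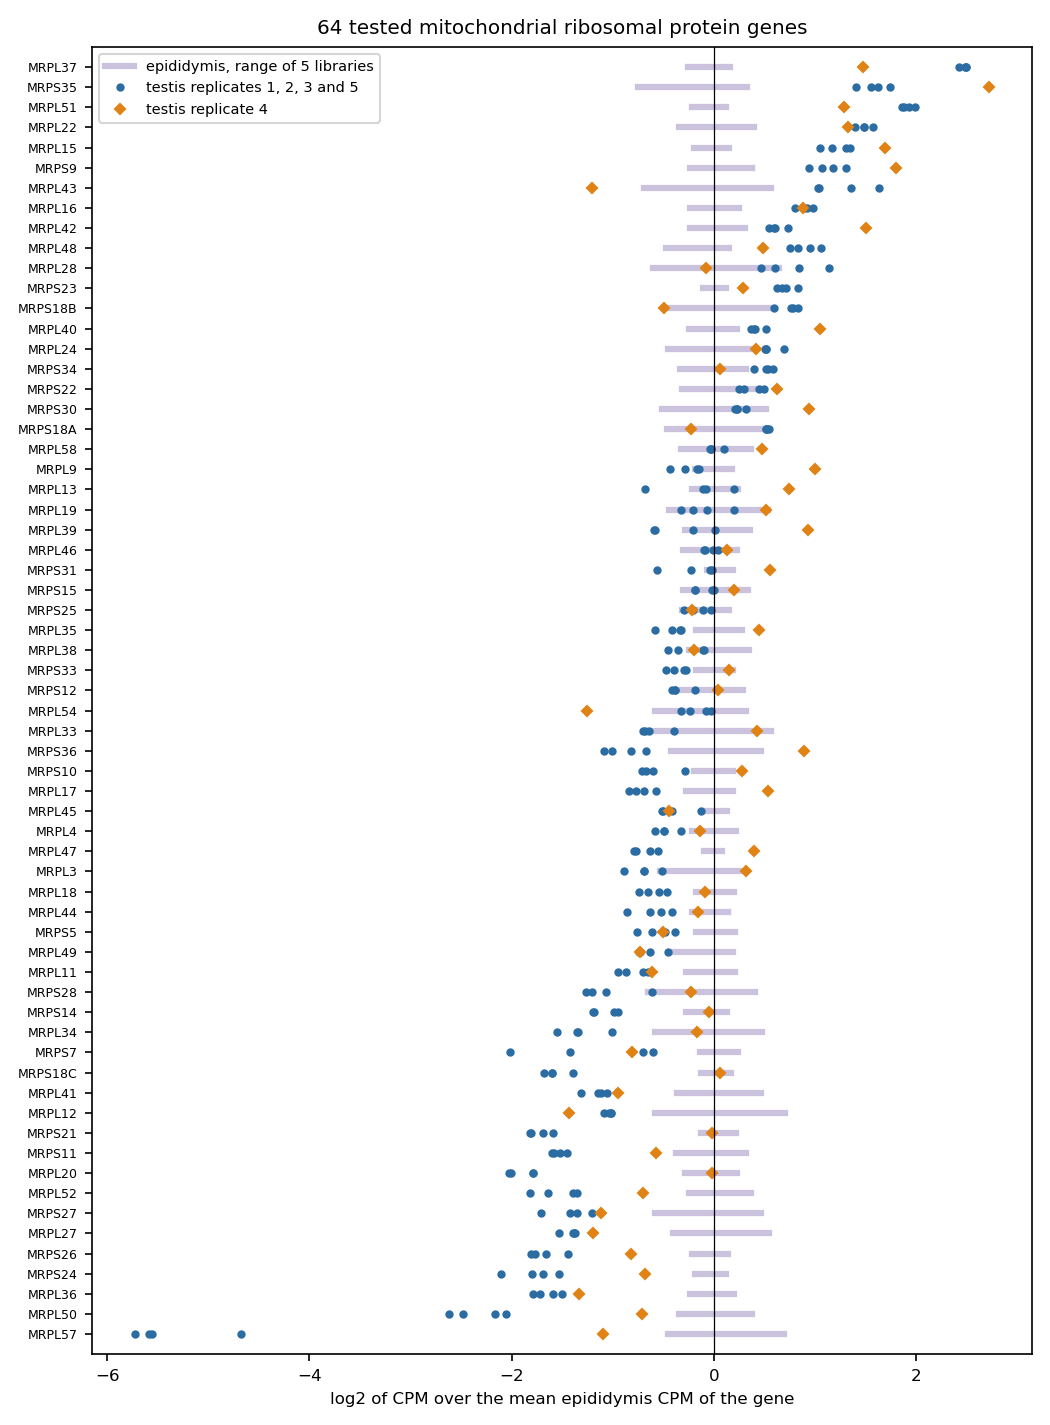
CPM of each of the 64 tested genes in each testis library, as log2 over the gene's mean epididymis CPM (0 on the axis), ordered by log2 fold change; circles are testis replicates 1, 2, 3 and 5, diamonds testis replicate 4, and bars the range of the 5 epididymis libraries. MRPL37 is at the top and MRPL57 at the bottom, and the diamonds of many genes in the lower part lie to the right of the circles, near or within the epididymis bar.

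The genes higher in testis were led by MRPL37, a large subunit protein without a bacterial counterpart, on chromosome 6 (158091873 to 158143529). It was at 393, 413, 413, 204 and 410 CPM in testis and 82.1, 82.1, 66.5, 61.2 and 74.2 CPM in epididymis. Testis replicate 4 had 0.502 times the mean of the other testis libraries and still lay above all epididymis libraries. The log2 fold change was 2.34 ± 0.24 (SE, n = 5 per tissue, edgeR adjusted p = 3.6e-06), and 1.58 with testis replicate 4 alone (edgeR adjusted p = 0.0067).

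MRPL51, another mitochondria-specific large subunit protein, had the same form, with 70.5, 69.9, 73.2, 46.8 and 76.0 CPM in testis and 19.9, 20.9, 17.9, 16.5 and 20.7 CPM in epididymis (log2 fold change 1.83 ± 0.20, edgeR adjusted p = 5.2e-06). MRPL22, which lines the tunnel through which the new protein leaves, was at 63.9, 67.9, 60.2, 57.4 and 63.9 CPM in testis and 20.6, 30, 18.4, 18.0 and 27.1 CPM in epididymis (1.47 ± 0.21, edgeR adjusted p = 4.8e-05). All 5 testis libraries of MRPL22 were close together, including replicate 4. Its RefSeq span overlaps LOC100524718.

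In MRPS35, a mitochondria-specific small subunit protein, testis replicate 4 was instead the highest library, with 19.3, 17.4, 20.2, 43.3 and 21.9 CPM in testis against 5.40, 3.89, 8.21, 7.90 and 7.34 CPM in epididymis (1.92 ± 0.29, edgeR adjusted p = 9.5e-05). MRPL15, the counterpart of a bacterial large subunit protein, was at 90.5, 98.1, 111, 141 and 108 CPM in testis and 48.7, 41.6, 38.3, 41.7 and 48.3 CPM in epididymis (1.34 ± 0.17, edgeR adjusted p = 1.8e-05). MRPS9, whose bacterial counterpart contacts the tRNA in the P site, was at 61.5, 52.2, 47.9, 86.5 and 56.5 CPM in testis and 24.6, 32.4, 24.0, 21.1 and 22.3 CPM in epididymis (1.30 ± 0.21, edgeR adjusted p = 0.000122). No testis library of these 3 genes overlapped an epididymis library.

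MRPL16, whose bacterial counterpart lies near the A-site tRNA, had a smaller difference (0.91 ± 0.16, edgeR adjusted p = 0.000313), with 36.1 to 40.9 CPM in testis and 17.6 to 24.6 CPM in epididymis. MRPL42 differed by 0.86 ± 0.22 (edgeR adjusted p = 0.00434), with 21.9 to 42.6 CPM against 12.7 to 18.5 CPM. Of the 13 genes higher in testis, 8 were also called with testis replicate 4 alone: MRPL15, MRPL22, MRPL37, MRPL40, MRPL42, MRPL51, MRPS9 and MRPS35, listed as the whole set after their values were seen. MRPL16 was at 0.98 there, short of the threshold (edgeR adjusted p = 0.0551). None of the 13 changed direction with testis replicate 4 alone. The shares of all genes called towards testis that changed direction or kept their call there are not given here.

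The largest difference towards epididymis was that of MRPL57, a short large subunit protein, on chromosome 11 (1320846 to 1321829). It was at 107, 154, 73.3, 70.5 and 69.3 CPM in epididymis and 1.79, 2.02, 3.70, 44.5 and 1.97 CPM in testis. The testis libraries fell into 4 near the bottom and replicate 4, which was 18.8 times their mean and still below all epididymis libraries. The log2 fold change was -3.17 ± 0.92 (edgeR adjusted p = 0.00769), -5.30 without testis replicate 4 (edgeR adjusted p = 1.7e-06) and -0.99 with testis replicate 4 alone (edgeR adjusted p = 0.205). The RefSeq span of MRPL57 overlaps SKA3, so reads of the pair may not have been fully separated.

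MRPL50, a mitochondria-specific large subunit protein, was at 14.6, 10.9, 13.1, 18.0 and 12.8 CPM in epididymis and 3.33, 2.48, 3.10, 8.50 and 2.26 CPM in testis (-1.81 ± 0.36, edgeR adjusted p = 0.000615; -0.60 with testis replicate 4 alone). MRPL36, the counterpart of a small zinc-binding bacterial protein, was at 15.6 to 21.1 CPM in epididymis and 5.33 to 7.32 CPM in testis (-1.56 ± 0.19, edgeR adjusted p = 1.6e-05). Its testis replicate 4 value was close to the other testis libraries, and alone it gave -1.23 (edgeR adjusted p = 0.0514). Among the 8 genes named by size in this direction, MRPL36 came nearest to the threshold with testis replicate 4 alone.

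The small subunit proteins MRPS24, MRPS26 and MRPS27 were lower in testis as well. MRPS24, the counterpart of a bacterial protein at the mRNA entry, differed by -1.46 ± 0.25 (edgeR adjusted p = 0.000222), with 39.0 to 48.3 CPM in epididymis and 10.3 to 27.7 CPM in testis. MRPS26 differed by -1.43 ± 0.20 (edgeR adjusted p = 4.8e-05), with 109 to 140 CPM against 36.2 to 71.7 CPM. MRPS27, a pentatricopeptide repeat protein, differed by -1.33 ± 0.22 (edgeR adjusted p = 0.000183), with 49.7 to 103 CPM against 22.8 to 34.4 CPM. The RefSeq spans of MRPS26 and MRPS27 overlap GNRH2 and PTCD2. The highest testis library was replicate 4 in MRPS24, MRPS26 and MRPS27. With it alone the values were -0.58, -0.71 and -1.01, none past the threshold.

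In the large subunit, MRPL27, whose bacterial counterpart reaches the site of peptide bond formation, was at 22.4 to 43.5 CPM in epididymis and 10.3 to 13 CPM in testis (-1.36 ± 0.23, edgeR adjusted p = 0.000182; -1.09 with testis replicate 4 alone, edgeR adjusted p = 0.131). MRPL52 was at 17.5 to 26.8 CPM and 5.88 to 12.7 CPM (-1.32 ± 0.24, edgeR adjusted p = 0.000355; -0.60 with testis replicate 4 alone, edgeR adjusted p = 0.256). The RefSeq span of MRPL27 overlaps EME1. MRPL12 forms the stalk that recruits translation factors. It was at 72.6, 120, 67.1, 58.9 and 49.3 CPM in epididymis and 34.6, 36.3, 35.8, 27.3 and 36.3 CPM in testis (-1.10 ± 0.25, edgeR adjusted p = 0.00178). Here testis replicate 4 was the lowest testis library, and alone it gave -1.33 (edgeR adjusted p = 0.103).

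A further group had testis replicate 4 at the level of the epididymis. MRPL20, the counterpart of a bacterial protein that binds rRNA early in assembly, was at 17.9, 21.2, 18.2, 72.1 and 21.2 CPM in testis and 80.6, 85.4, 66.7, 59.8 and 72.5 CPM in epididymis (-1.28 ± 0.38, edgeR adjusted p = 0.00883). With testis replicate 4 alone its log2 fold change was 0.08 (edgeR adjusted p = 0.864). MRPS21, named after its values were seen, was at 33.1 CPM in testis replicate 4, at most 10.4 CPM in testis replicates 1 to 3, and 30.7 to 39.0 CPM in epididymis. In all, 5 of the 25 genes higher in epididymis changed direction with testis replicate 4 alone, to between 0.02 and 0.16: MRPL18, MRPL20, MRPS14, MRPS18C and MRPS21. The shares of all genes called towards epididymis that changed direction or kept their call there are not given here. None of the 25 was called in that fit. Over all genes tested, too, that fit called fewer genes than the fit of all libraries. Of the 5, MRPL18 also lost its call with the boar as a block (edgeR adjusted p = 0.0795).

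**Figure D3:**
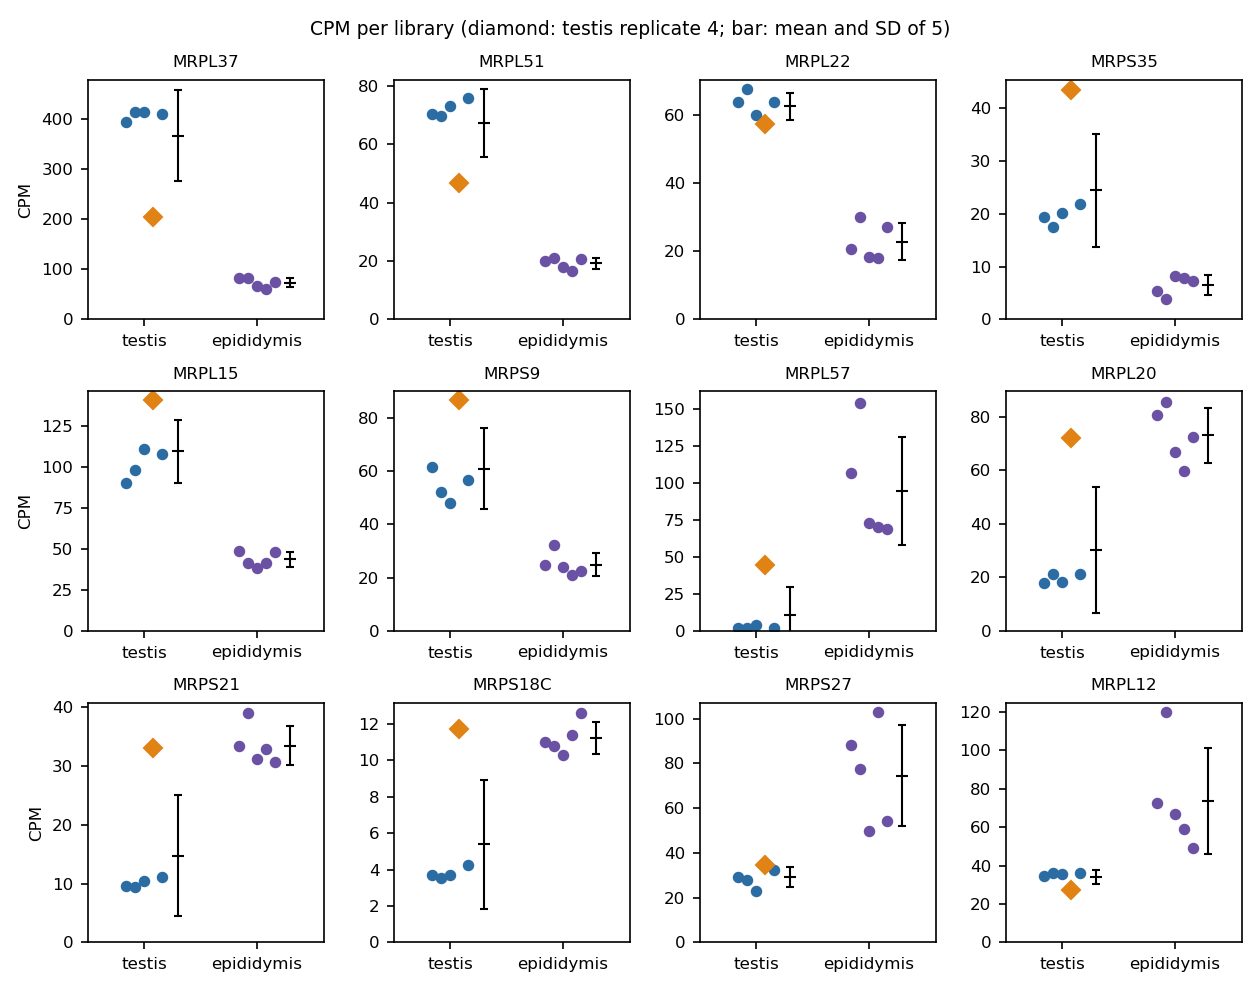
CPM per library of 12 genes in testis and epididymis, axes from 0; circles are libraries, the diamond is testis replicate 4, and the bar is the mean with its SD (n = 5, cut at 0 for MRPL57). For MRPL37, MRPL51, MRPL22, MRPS35, MRPL15 and MRPS9 all testis libraries lie above the epididymis; for MRPL20, MRPS21 and MRPS18C the diamond lies within or near the epididymis values.

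The place of testis replicate 4 can be described over the whole list. It was above the other 4 testis libraries in 44 of the 64 genes (68.8%, against 40.6% of all genes tested) and over 2 times their mean in 16 (25%, against 11.3%). Of the 31 genes higher in epididymis without it, its value was nearer to the epididymis mean than to that of the other testis libraries in 21 (67.7%), against 22.6% of all genes called that way. For the 17 higher in testis without it, the same held in 5 (29.4%), against 13.4%. These shares are not like for like, because tissue differences were smaller in the list. The median absolute log2 fold change was 0.61 over the 64 genes and 1.51 over all genes tested. It was above the other testis libraries for 12 of the 13 mitochondrial mRNAs, for the nuclear OXPHOS genes in 46 of 61 cases and for the cytosolic ribosomal proteins in 53 of 62.

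Genes near 0 included MRPL46 (log2 fold change 0.01 ± 0.18), MRPS31 (0.01 ± 0.22) and MRPS15 (-0.02 ± 0.19). MRPL46, of the central protuberance of the large subunit, was at 15.6 to 18.2 CPM in testis and 13.5 to 19.5 CPM in epididymis. It is the neighbour of MRPS11 on chromosome 1, with 38 bases between MRPS11 (191310547 to 191321951) and MRPL46 (191321990 to 191331320), the only pair of these genes within 100000 bases. MRPS11 was at 15.2, 15.4, 16.8, 30.9 and 16 CPM in testis and 57.2, 54.1, 38.7, 35.4 and 44.2 CPM in epididymis, a log2 fold change of -1.28 ± 0.25 (edgeR adjusted p = 0.000594; -0.48 with testis replicate 4 alone). The difference between the fold changes of these neighbours was not tested.

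By subunit, the large subunit had 9 genes higher in testis (22.0%, against 36.6% of all genes tested), 15 higher in epididymis (36.6%, against 37.8%) and 17 not called of 41 tested, with a median log2 fold change of -0.22. The small subunit had 4 (18.2%), 10 (45.5%) and 8 of 22 (median -0.28). Summed, the large subunit was at 1632 ± 82.4 CPM in testis and 1476 ± 186 CPM in epididymis (SD, n = 5 each). The small subunit was at 695 ± 59.7 and 799 ± 79.5 CPM (SD, n = 5 each). MRPL37 alone had means of 367 CPM in testis and 73.2 CPM in epididymis, a larger gap than that between the large subunit means. The higher large subunit mean in testis thus rests on this gene. Counterparts of bacterial proteins had 5 higher in testis (14.3%) and 16 higher in epididymis (45.7%) of 35 (median -0.38), and mitochondria-specific proteins 8 (28.6%) and 9 (32.1%) of 28 (median 0.01). With testis replicate 4 alone these last medians were 0.09 and 0.19, and 0 genes of any group were higher in epididymis. Differences between the groups were not tested. Of the 5 exit tunnel proteins, 2 were higher in testis (MRPL22 and MRPL24) and 1 in epididymis (MRPL45), and both tested stalk proteins, MRPL11 and MRPL12, were higher in epididymis. The call of MRPL24 was lost without epididymis replicate 4 or 5, and that of MRPL45 without any 1 of 6 libraries (epididymis replicates 1, 2 and 4, testis replicates 1, 2 and 3) or with the boar as a block (edgeR adjusted p = 0.108). The remaining exit tunnel proteins, MRPL17 and MRPL47, were called towards epididymis without testis replicate 4 (edgeR adjusted p = 0.00231 and 0.00787). Testis replicate 4 alone put MRPL17 at 0.63, MRPL47 at 0.50, MRPL24 at 0.52 and MRPL11 at -0.51.

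By counted length, 12 of the 20 genes with rows up to 1500 bases were higher in epididymis (60%) and 3 in testis (15%, median -0.88). Of the 18 over 4000 bases, 4 were higher in each tissue (22.2%, median 0.08), and the difference between these groups was not tested. Over all genes tested, the rows up to 1500 bases had 1016 higher in testis (47.8%) and 750 in epididymis (35.3%) of 2125 (median 0.58). All tested rows over 4000 bases had 34.5% higher in testis and 37.2% in epididymis of 8702 (median -0.10). With testis replicate 4 alone the median of the 20 short genes was -0.09 and that of the 18 long genes 0.60. Over all tested genes of these lengths the medians there were 0.49 and -0.12.

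Paralogs can be compared in the MRPS18 family, whose members occupy different sites of the ribosome. MRPS18A, found in the large subunit, was at 72.7, 71.2, 71.1, 42.5 and 71.8 CPM in testis and 36.2 to 71.8 CPM in epididymis (log2 fold change 0.42 ± 0.26, edgeR adjusted p = 0.162). MRPS18B, of the small subunit, was at 33.3, 37.9, 37.4, 15.7 and 39.4 CPM in testis and 16.4 to 32.7 CPM in epididymis (0.58 ± 0.31, edgeR adjusted p = 0.110). Both had their lowest testis value in replicate 4, which alone turned them to -0.13 and -0.40.

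MRPS18C, also of the small subunit, was higher in epididymis, with 3.69, 3.51, 3.70, 11.7 and 4.27 CPM in testis and 10.3 to 12.6 CPM in epididymis (-1.06 ± 0.34, edgeR adjusted p = 0.0136). Leaving out testis replicate 1 or 3 lost its call, with an edgeR adjusted p of up to 0.0585, and testis replicate 4 alone gave 0.16. The RefSeq spans of MRPS18B and MRPS18C overlap other genes. MRPS30, which despite its name sits in the large subunit, was at 11.2 to 18.5 CPM in testis and 6.79 to 13.8 CPM in epididymis (0.44 ± 0.23, edgeR adjusted p = 0.105).

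MRPS36 was at 8.66, 7.22, 7.64, 28.5 and 9.65 CPM in testis and 11.8, 11.4, 15.5, 16.7 and 21.2 CPM in epididymis (-0.31 ± 0.38, edgeR adjusted p = 0.469). Its testis replicate 4 lay above all epididymis libraries and the other testis libraries below them. Without that library the difference was -0.86 (edgeR adjusted p = 0.00491), and with it alone 0.99 (edgeR adjusted p = 0.107).

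Levels differed widely between genes of the same particle. In CPM per 1000 bases of counted length, averaged over tissues, the highest were MRPL41 at 174, MRPL57 at 83.1, MRPS26 at 82.3, MRPS34 at 79.4, MRPL20 at 67.4 and MRPL12 at 63.7. MRPL41, a mitochondria-specific large subunit protein, was at 39.0 to 50.2 CPM in testis and 75 to 134 CPM in epididymis (log2 fold change -1.10 ± 0.20, edgeR adjusted p = 0.000394; -0.85 with testis replicate 4 alone, edgeR adjusted p = 0.171). MRPS34, of the small subunit, was at 256, 225, 243, 178 and 247 CPM in testis and 212, 210, 140, 155 and 135 CPM in epididymis (0.45 ± 0.20, edgeR adjusted p = 0.0612). MRPL37, which had the most testis reads, was only thirteenth in this order (30 CPM per 1000 bases) because its row is 7341 bases long.

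At the lower end MRPS30 was at 0.846 and MRPL28 at 0.268 CPM per 1000 bases, with counted lengths of 13320 and 7255 bases. MRPL28 was at 1.44 to 3.33 CPM in testis and 1.00 to 2.37 CPM in epididymis (log2 fold change 0.68 ± 0.35, edgeR adjusted p = 0.0952). The 3 genes removed by the filter were nearly empty. MRPL10, the base of the stalk on which MRPL12 sits, had 38 reads over the testis libraries and 4 over the epididymis libraries. MRPL55 had 0 and 20 reads and MRPS16 had 34 and 47. A count of 0 in 1 library allows up to 3 reads, or 0.0993 to 0.167 CPM. How far these rows stand for the whole transcripts was not tested.

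The spread between testis replicates was like that of other genes, with a median SD of log2 CPM of 0.34 against 0.33 over all genes tested. It was 0.13 against 0.18 in testis without replicate 4 and 0.24 against 0.54 in epididymis; these differences were not tested. At matched levels, the 32 genes in the middle of the list had medians of 0.25, 0.12 and 0.22, and the 4049 genes of the same level range had 0.28, 0.15 and 0.43. Between tissues, 25% of those 32 differed by more than 2-fold, against 56.1% of the 4049. The largest SD in testis among tested genes was that of MRPL57 (1.96), and in epididymis that of MRPL28 (0.51).

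Of the 4 genes matched by identifier, MRPL2 (-0.13), MRPL30 (-0.04) and MRPS2 (0.28) were not called. MRPS6 was at 27.2, 27.3, 25.5, 16.6 and 29.3 CPM in testis and 110, 92.4, 538, 88.4 and 114 CPM in epididymis (log2 fold change -2.86 ± 0.51, edgeR adjusted p = 0.000317; -3.37 with testis replicate 4 alone, edgeR adjusted p = 0.0944). Its RefSeq span overlaps SLC5A3, and epididymis replicate 3 stood far above the other libraries.

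The machinery around the mitochondrial ribosome was also mixed. The shares of all genes tested that its lists can be read against were 36.6% higher in testis and 37.8% higher in epididymis, or 23.4% and 11.4% with testis replicate 4 alone. Of 13 tested translation factors, 4 were higher in testis (30.8%) and 7 in epididymis (53.8%), with a median log2 fold change of -0.62. Testis replicate 4 alone gave counts of 3 and 0 and a median of 0.11. GFM1, an elongation factor (2.14, or 3.32 with testis replicate 4 alone), and MRRF, the ribosome recycling factor (1.84, or 1.72), were the largest towards testis and were called in both fits. MTFMT, which formylates the initiator tRNA (-2.59, from only 48 testis reads at 0.154 to 0.641 CPM), and MTRF1L, a release factor (-1.94), were the largest towards epididymis. Neither was called with testis replicate 4 alone (-1.86, edgeR adjusted p = 0.158, and -0.61, edgeR adjusted p = 0.301). Of the ribosomal proteins with other names, 3 of 5 tested (60%) were higher in epididymis and 0 in testis. CHCHD1 (-3.07) was called with testis replicate 4 alone as well (-1.61, edgeR adjusted p = 0.0294) and GADD45GIP1 (-1.26) was not (-0.73, edgeR adjusted p = 0.364).

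Of 23 tested assembly factors, 7 were higher in testis (30.4%) and 10 in epididymis (43.5%), with a median of -0.41; with testis replicate 4 alone the counts were 5 and 3 and the median -0.43. The RNA helicase DDX28 was at 145, 129, 130, 75.9 and 146 CPM in testis and 4.53, 2.85, 7.11, 5.67 and 5.39 CPM in epididymis (log2 fold change 4.65 ± 0.29, edgeR adjusted p = 9e-08; 4.0 with testis replicate 4 alone). The rRNA methyltransferase NSUN4 differed by 3.53 (3.59 with testis replicate 4 alone). MPV17L2 (-1.77) and the pseudouridine synthase TRUB2 (-1.74) were the largest in the other direction. MPV17L2 was called with testis replicate 4 alone (-1.72) and TRUB2 was not (-1.06, edgeR adjusted p = 0.0598).

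Of 18 mitochondrial tRNA synthetases, 4 were higher in testis (22.2%) and 7 in epididymis (38.9%), with a median of -0.28, or 1 and 2 with a median of -0.24 with testis replicate 4 alone. FARS2 (1.6) and LARS2 (0.95) led towards testis, and WARS2 (-2.26) and GARS1 (-1.52), which also serves the cytosol, towards epididymis. FARS2 (1.82), WARS2 (-2.17) and GARS1 (-1.48) were called with testis replicate 4 alone, and LARS2 was not (0.42, edgeR adjusted p = 0.5).

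Of 12 genes of mitochondrial DNA transcription and replication, 3 were higher in testis (25%) and 5 in epididymis (41.7%), with a median of -0.33, or 2 and 1 with a median of 0.07 with testis replicate 4 alone. The topoisomerase TOP1MT (2.8, or 2.72 with testis replicate 4 alone) was higher in testis in both fits. The RNA polymerase POLRMT (1.05) was not called with testis replicate 4 alone (0.62, edgeR adjusted p = 0.214). Towards epididymis, MTERF2 (-2.39) was called there (-1.27, edgeR adjusted p = 0.0493) and MTERF1 (-1.38) was not (-1.11, edgeR adjusted p = 0.0866).

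Of 16 genes of mitochondrial RNA processing and stability, 5 were higher in each tissue (31.2%), with a median of -0.20, or 5 in testis and 0 in epididymis with a median of 0.24 with testis replicate 4 alone. The tRNA-processing nuclease ELAC2 (2.35, or 2.41 with testis replicate 4 alone) and the oligoribonuclease REXO2 (1.53, or 2.13) were higher in testis in both fits. ANGEL2 (-1.80) and SLIRP, which stabilises mitochondrial mRNAs (-1.68), were higher in epididymis in the fit of all libraries. SLIRP was at 1.90 to 2.68 CPM in testis replicates 1, 2, 3 and 5, 8.50 CPM in replicate 4 and 8.4 to 15.5 CPM in epididymis. Alone, testis replicate 4 put SLIRP at -0.29 (edgeR adjusted p = 0.653) and ANGEL2 at -1.33 (edgeR adjusted p = 0.0552).

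Of 10 regulators of mitochondrial biogenesis, 0 were higher in testis and 5 in epididymis (50%), with a median of -0.78, or 0 and 3 with a median of -0.60 with testis replicate 4 alone. MYC (-2.75, or -2.79 with testis replicate 4 alone) and YY1 (-1.77, or -0.94) led and were called in both fits. Of 17 outer membrane and matrix genes, testis was higher for 6 (35.3%) and epididymis for 4 (23.5%), with a median of -0.20, or 5 and 3 with a median of 0.51 with testis replicate 4 alone. The channel VDAC3 (2.46, or 3.19) was called towards testis in both fits, whereas citrate synthase CS (2.02) was not called with testis replicate 4 alone (0.83, edgeR adjusted p = 0.0532). The import receptor TOMM20 (-1.95, or -1.16) and PHB (-1.56, or -1.02) were called towards epididymis in both.

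**Figure D4:**
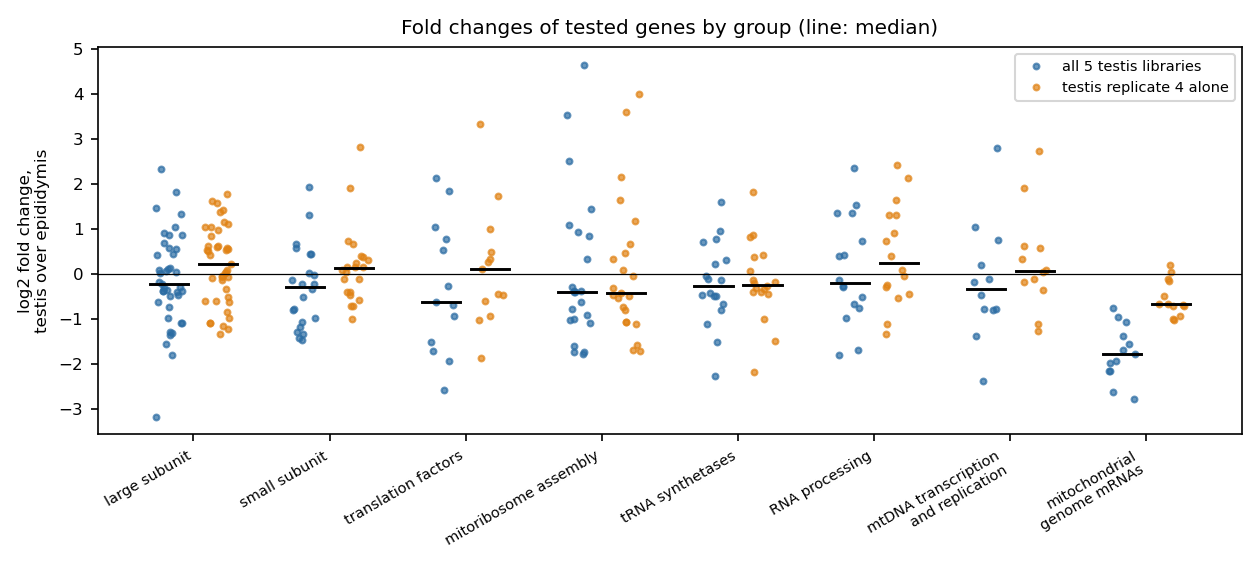
Log2 fold change (testis over epididymis) of the tested genes of 8 groups, one point per gene, with all 5 testis libraries (left of each pair) and with testis replicate 4 alone (right); the line is the median. The mitochondrial ribosomal protein subunits have medians of -0.22 and -0.28 with all libraries, and the mitochondrial genome mRNAs one of -1.78.

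Beside these, the 62 cytosolic ribosomal protein genes had 58 higher in epididymis (93.5%, against 37.8% of all genes tested) and 2 in testis (median -1.82), with summed levels of 14190 ± 3822 CPM in testis and 47777 ± 5957 CPM in epididymis (SD, n = 5 each). With testis replicate 4 alone 27 of them were higher in epididymis, 1 in testis, and the median was -1.15. The 61 tested nuclear OXPHOS genes had 34 higher in epididymis (55.7%) and 12 in testis (median -0.63, or -0.06 with testis replicate 4 alone), and their sums were 4306 ± 618 and 5822 ± 431 CPM (SD, n = 5 each). The ratio of epididymis to testis was thus 3.37 for cytosolic ribosomal proteins, 3.34 for mitochondrial mRNAs, 1.35 for nuclear OXPHOS genes and 0.98 for mitochondrial ribosomal proteins. Over testis replicate 4 alone the ratios were 2.28, 1.83, 1.08 and 0.888 in the same order. The mitochondrial mRNA mean of epididymis includes replicate 2 at 64534 CPM, with the others at 17840 to 24721 CPM. Without MRPL37 the ratio for mitochondrial ribosomal proteins was 1.12 over all libraries. Differences between these groups were not tested.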

How the data were processed

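Per the labels' protocols, poly(A) RNA was enriched and PCR-amplified cDNA was sequenced. Per the submitters' processing notes, cutadapt 3.0, STAR, featureCounts (Subread) and build Sscrofa11.1 were used. The sources used here do not give the annotation release, strand setting or handling of shared and multiply mapped reads, so genes overlapping another (20 of the 67) are uncertain. The authors deposited raw read counts per gene, and the deposited files also hold each row's counted length; 2 long-read pools of 5 boars were not analysed here. Floors cover counting error only, since molecular identifiers are not mentioned.

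Counts were tested with edgeR 4.0.16 in R 4.3.3 (filterByExpr, TMM, robust quasi-likelihood, tissue only), adjusted by Benjamini-Hochberg over 17225 genes. The SE is the unshrunk log2 fold change over the root of F. DESeq2 1.42.0, other scaling, no filter, left-out libraries or rows and a boar block were alternatives. Both tissues came from the same boars per the file headers; correlations of same-boar deviations were 0.01 to 0.08. Symbols for identifier rows came from the gene name table.

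Genes named were the 8 largest called differences without overlap in each direction, the 6 highest per length, the MRPS18 family, MRPS30, MRPS36, the 3 largest SDs per tissue, the 3 smallest fold changes, the 3 most abundant mitochondrial mRNAs with those deviating, and up to 2 per direction of each pathway list. The members and lists were chosen with earlier results of these data known.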

Additional observations from a re-analysis of the deposited data

Results flagged for a closer look

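In 37 of 134 groups of 5 libraries, 1 library lay apart from the other 4 by more than Dixon's criterion of 0.71 of the range. Of these, 27 were testis replicate 4 and 6 were epididymis replicate 2. The groups share their libraries, and some genes were named for a large spread or difference, so the count cannot be set against a chance rate.

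Among the ribosomal protein genes, testis replicate 4 was highest for MRPL20 (72.1 CPM, others 17.9 to 21.2), MRPL42 (42.6 CPM, others 21.9 to 24.9), MRPL50 (8.50 CPM, others 2.26 to 3.33) and MRPL57 (44.5 CPM, others 1.79 to 3.70). It was also highest for MRPS18C (11.7 CPM, others 3.51 to 4.27), MRPS24 (27.7 CPM, others 10.3 to 15.4), MRPS30 (18.5 CPM, others 11.2 to 12.0), MRPS35 (43.3 CPM, others 17.4 to 21.9) and MRPS36 (28.5 CPM, others 7.22 to 9.65). It was lowest for MRPL12 (27.3 CPM, others 34.6 to 36.3), MRPL37 (204 CPM, others 393 to 413), MRPL51 (46.8 CPM, others 69.9 to 76.0), MRPS18A (42.5 CPM, others 71.1 to 72.7) and MRPS18B (15.7 CPM, others 33.3 to 39.4). For MRPS31, epididymis replicate 3 was highest (13.7 CPM, others 11.5 to 11.8).

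For the mitochondrial mRNAs, epididymis replicate 2 was highest in the sum (64534 CPM, others 17840 to 24721), COX1 (22391 CPM, others 4654 to 8896), COX3 (10069 CPM, others 2925 to 4975), CYTB (5718 CPM, others 1753 to 2366), ND1 (1561 CPM, others 468 to 610) and ATP8 (7.39 CPM, others 1.33 to 1.52). Testis replicate 4 was highest in the sum (16159 CPM, others 5238 to 8323), CYTB (1617 CPM, others 543 to 799) and ATP8 (2.78 CPM, others 0.780 to 1.02).

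Among the other genes, testis replicate 4 was highest for GFM1 (226 CPM, others 69.1 to 84.1), MTRF1L (5.50 CPM, others 1.33 to 1.68), CHCHD1 (7.21 CPM, others 1.32 to 2.01), MTERF2 (4.81 CPM, others 1.67 to 1.92), SLIRP (8.50 CPM, others 1.90 to 2.68), YY1 (63.4 CPM, others 28.0 to 33.8) and VDAC3 (419 CPM, others 210 to 256). It was lowest for DDX28 (75.9 CPM, others 129 to 146), LARS2 (34.3 CPM, others 54.6 to 58.3) and POLRMT (96.1 CPM, others 138 to 153). Testis replicate 2 was highest for MPV17L2 (27.5 CPM, others 22.5 to 23.4) and lowest for FARS2 (30.8 CPM, others 51.3 to 54.6), and epididymis replicate 1 was highest for ELAC2 (55.6 CPM, others 43.0 to 46.4).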

How the results depend on the processing

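Over 1172 comparisons of 62 named genes with 19 alternatives, 1087 kept direction and call, 32 lost the call, 25 gained it and 28 changed direction. DESeq2 size factors moved the median of all genes from -0.07 to 0.05. They called 6661 genes towards testis and 6053 towards epididymis, instead of 6308 and 6506. The median of the mitochondrial ribosomal proteins moved from -0.27 to -0.14, still on the epididymis side. Of the 38 called ribosomal protein genes 33 kept their call, and MRPL4, MRPL18, MRPL44, MRPL45 and MRPS28 lost it (edgeR adjusted p 0.0568 to 0.173). MRPS34, MRPS30 and MRPL43 became called towards testis (edgeR adjusted p = 0.0262, 0.0432 and 0.0361). Testis replicate 4 as the only testis library gave 1 ribosomal protein gene higher in epididymis (MRPS16, at 0 reads there and outside the main filter), 0 mitochondrial mRNAs higher in epididymis and a median of 0.12 over the 66 genes passing its filter. There the log2 fold change was 0.08 for MRPL20, -0.13 for MRPS18A, -0.40 for MRPS18B, 0.16 for MRPS18C, 0.99 for MRPS36, 0.05 for ND1, 0.19 for ATP8 and 0.30 for MRPS15; the cause was not tested. Leaving out 1 library gave 11 to 17 ribosomal protein genes higher in testis, 17 to 31 higher in epididymis, a median of -0.34 to -0.14, 7 to 13 mitochondrial mRNAs higher in epididymis, and testis over epididymis ratios of 0.993 to 1.06 for the ribosomal protein sum and 0.237 to 0.426 for the mitochondrial mRNA sum. The genes nearest 0 changed sign under some settings: MRPL46 came to between -0.10 and -0.01 without epididymis replicate 4 or 5 or testis replicate 4, -0.01 without composition factors and -0.09 without epididymis replicates 3 and 4; MRPS31 came to -0.15 without testis replicate 4, -0.05 without epididymis replicate 4, -0.01 without composition factors or without epididymis replicates 3 and 4, and -0.13 without testis replicate 4 and epididymis replicate 3; MRPS15 ranged from -0.12 to 0.10 with 1 library left out and came to 0.10 with DESeq2 size factors or the DESeq2 test.

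With the boar as a block (replicate block), 12 ribosomal protein genes were called towards testis and 20 towards epididymis. MRPL18, MRPL4, MRPL44, MRPL45, MRPS22 and MRPS28 lost their calls (edgeR adjusted p 0.0546 to 0.108), and MRPS15 came to 0.00 and MRPS31 to -0.02. Of the mitochondrial mRNAs, ND6 lost its call (edgeR adjusted p = 0.0782). The block changed no other call of a named gene. Rows with few reads (MRPL10, MRPL55 and MRPS16) allow no fold change at this depth.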
